A study of Rattus norvegicus with 2 samples.

Results

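The let-7 and miR-98 family was measured on native HDL (nHDL) kept with or without beta cells. Its members were found by name among the 406 rat miRNAs of the deposited read table, and all 10 names searched for had an entry there: 9 mature miRNAs of the 5p arm (let-7a-5p, let-7b-5p, let-7c-5p, let-7d-5p, let-7e-5p, let-7f-5p, let-7g-5p, let-7i-5p and miR-98-5p) and 1 of the 3p arm (let-7d-3p). The cells were INS-1 832/13, a line derived from a rat insulinoma that serves as a model of the insulin-secreting beta cell. In the group called INS-1-nHDL, human plasma nHDL at 1 mg/mL was left on these cells for 24 h at 3 mM glucose. In the group called cf-nHDL, for cell-free, nHDL at the same 1 mg/mL was kept for 24 h at 3 mM glucose in medium that held no cells. nHDL was then recovered from the medium by immunoprecipitation of apolipoprotein A-I, the main protein of HDL, and its small RNA was sequenced. Each group is 1 library made from a pool of 3 samples, so no difference between the groups has a replicate check, no p-value is given, and every interval covers counting error only. PCR copies of 1 molecule cannot be recognised in these reads, so the true error may be wider.

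let-7 miRNAs were among the first small RNAs found to time animal development, and they are abundant in most differentiated mammalian tissues. A precursor hairpin is cut to a duplex, and one arm, usually the 5p arm in this family, is loaded into an Argonaute protein and guides it to messenger RNAs through the seed, the bases near the 5′ end. The RNA-binding protein LIN28 blocks the maturation of let-7 precursors, and the Lin28/let-7 axis is known to act on insulin signalling and glucose metabolism. The mature sequences of these miRNAs are the same in human and rat, so a read does not tell whether it came with the human nHDL or from the rat cells.

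The sequences are shown because the members differ by so few bases that reads can be hard to assign to 1 of them. They are given as the deposited table writes them, 5′ to 3′ with T for U, and the seed (bases 2 to 8) is in capitals.
let-7a-5p: tGAGGTAGtaggttgtatagtt
let-7b-5p: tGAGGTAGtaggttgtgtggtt
let-7c-5p: tGAGGTAGtaggttgtatggtt
let-7d-5p: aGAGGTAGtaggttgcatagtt
let-7e-5p: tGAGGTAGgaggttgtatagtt
let-7f-5p: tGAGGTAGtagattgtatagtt
let-7g-5p: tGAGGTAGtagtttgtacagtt
let-7i-5p: tGAGGTAGtagtttgtgctgtt
miR-98-5p: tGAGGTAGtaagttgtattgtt
let-7d-3p: cTATACGAcctgctgcctttct

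All 10 were 22 nt long and equalled the mature sequences of RefSeq on GRCr8. The 9 members of the 5p arm shared the seed GAGGTAG, which 0 other miRNAs of the table carried at bases 2 to 8. let-7d-3p, from the opposite side of the let-7d hairpin, had another seed. Counted from 1 at the 5′ end and with let-7a-5p as the reference, let-7c-5p differed by A19G, let-7e-5p by T9G and let-7f-5p by G12A. let-7b-5p differed by A17G and A19G, and so lay 1 base from let-7c-5p. let-7d-5p differed by T1A and T16C, let-7g-5p by G12T and T18C, and miR-98-5p by G11A and A19T. let-7i-5p was the farthest from let-7a-5p, with G12T, A17G, T18C and A19T. The authors' alignment allowed 1 mismatch, and 4 of the 36 pairs of 5p members were 1 base apart.

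In the whole table, the cf-nHDL library had 6587 reads on miRNAs and the INS-1-nHDL library 18009, and a count of 0 allows a share of up to 0.0455% and 0.0167% of them (3 reads of the total). miR-375-3p alone took 3.51% of them in the first and 62.3% in the second, and without it the totals were 6356 and 6790. A minimum of 5 reads in either library left 81 miRNAs, and 9 of the 10 members were among them. let-7d-5p, with 4 reads in each library, was not. Reads were divided by DESeq2 size factors, which were 0.71 (cf-nHDL) and 1.41 (INS-1-nHDL). A fold change of 1 is thus reached with 1.98 times the reads in the INS-1-nHDL library. No spike-in or other amount of RNA was at hand here to fix this scale, so each fold change depends on it, while the order of the members and the ratio of 1 member to another do not.

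**Figure D1:**
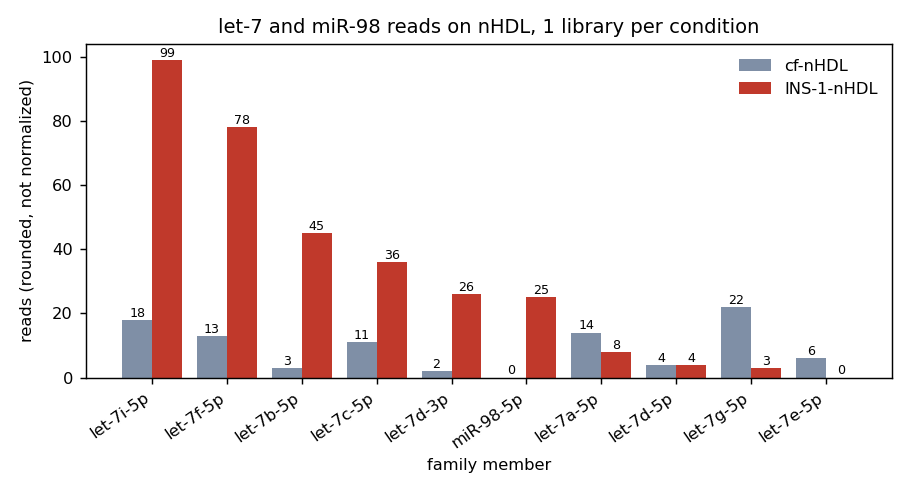
Reads on each of the 10 members (vertical axis, rounded and not normalized) in the cf-nHDL library (grey) and the INS-1-nHDL library (red), 1 bar per library. let-7i-5p, at 18 and 99 reads, was the highest member on INS-1-nHDL, while let-7g-5p, at 22 and 3 reads, was the highest on cf-nHDL.

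Summed over the 9 members of the 5p arm, the family had 91 reads on cf-nHDL against 298 on INS-1-nHDL. This was 1.38% of the miRNA reads of the first library (Wilson 95% interval 1.13 to 1.69%) and 1.65% of those of the second (1.48 to 1.85%), and these intervals overlap. When miR-375-3p was left out of the total, the shares were 1.43% (1.17 to 1.75%) and 4.39% (3.93 to 4.90%), which do not overlap. The scaled fold change, taken throughout as INS-1-nHDL relative to cf-nHDL, was 1.65, with an exact Clopper-Pearson 95% interval of 1.30 to 2.11 given the sum of both counts. Scaled by total miRNA reads it was 1.20 (0.944 to 1.53), and by total miRNA reads without miR-375-3p it was 3.07 (2.42 to 3.92). The sum was therefore higher on INS-1-nHDL beyond counting error under the size factors and under the totals without miR-375-3p, and its interval held 1 under the totals with it.

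The sum joins members that went in opposite directions. Of the 9 members kept, 6 had a fold change above 1.5, where 49.4% of all 81 miRNAs kept did. The other 3 had a fold change below 1/1.5, where 39.5% of all did, and none lay between. Both directions were thus common in the whole table, and these shares were not tested against it. The exact interval lay entirely above 1.5 for 5 members, against 30.9% of all, and entirely below 1/1.5 for 2 members, against 29.6% of all. Of these, let-7b-5p, let-7d-3p and miR-98-5p passed the minimum of 5 reads only on INS-1-nHDL, where they were higher. let-7g-5p and let-7e-5p passed it only on cf-nHDL, where they were higher. The filter thus favours such members, and these counts do not show a direction of the family. The median fold change was 2.77 for the 9 members kept and 1.17 for the 81 miRNAs. These 9 include let-7d-3p and leave out let-7d-5p, so they are not the 9 of the 5p sum.

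Among the higher members, let-7i-5p had the most reads. It had 18 reads on cf-nHDL against 99 on INS-1-nHDL, which is a fold change of 2.77 (exact 95% interval 1.67 to 4.87), and ranked 29 among miRNAs by reads in the first library and 15 in the second. It is encoded by a single gene, and the deposited table places it at chr7:67000241-67000262 on the plus strand of the rat build that the study writes as rno5. let-7f-5p, which 2 precursor genes encode, had 13 and 78 reads, a fold change of 3.02 (1.67 to 5.93), and ranked 35 and 19. Summed, let-7i-5p and let-7f-5p had 31 and 177 reads, and their fold change was 2.88 (1.96 to 4.36). With both left out, the other 7 members summed to 60 and 121 reads, a fold change of 1.02 (0.740 to 1.41).

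let-7b-5p was listed at 2.6 and 44.6 reads, in the same order, rounded to 3 and 45. Its fold change of 7.56 was the highest among members with reads in both libraries, but 3 reads on cf-nHDL leave an interval of 2.43 to 38.0. let-7c-5p was listed at 11.2 and 36.2 reads, rounded to 11 and 36. Its fold change of 1.65 (0.821 to 3.59) has an interval that holds 1, and it is the higher member that could not be told from no difference at this depth. miR-98-5p, the member whose name departs from the let-7 series, had 0 reads on cf-nHDL against 25 on INS-1-nHDL. Against 3 reads on cf-nHDL it was at least 4.20-fold higher, and its exact interval starts at 3.17. On cf-nHDL, 21% of all miRNAs kept had 0 reads, so a count of 0 there was not rare in these libraries.

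The lower members were let-7g-5p, let-7a-5p and let-7e-5p. let-7g-5p had 22 reads on cf-nHDL, more than any other member there, and 3 on INS-1-nHDL. This is a fold change of 0.0687 (0.0132 to 0.229), and the miRNA ranked 27 in the first library and 72 in the second. let-7a-5p, which also has 2 precursor genes, was listed at 14.2 and 8.2 reads, rounded to 14 and 8, a fold change of 0.288 (0.105 to 0.736). let-7e-5p had 6 reads on cf-nHDL against 0 on INS-1-nHDL. With 3 reads assumed on INS-1-nHDL, the fold change is at most 0.252, and the exact interval ends at 0.428. Of all miRNAs kept, 9.88% had 0 reads on INS-1-nHDL. For let-7g-5p, let-7a-5p and let-7e-5p, the reads were fewer on INS-1-nHDL before any scaling. That library had 2.73 times as many miRNA reads in all, and 1.07 times as many without miR-375-3p. The share of all miRNAs kept with fewer reads there was not computed, but 39.5% of them had a scaled fold change below 1/1.5.

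Each member lay on the same side of 1 when the size factors were replaced by any of 4 other ways of scaling the libraries that changed the scale. The intervals of let-7i-5p, let-7f-5p, let-7b-5p, miR-98-5p and let-7d-3p lay above 1 under all 5, and those of let-7g-5p and let-7e-5p below it. Scaling by the miRNA total after leaving out miR-375-3p put let-7a-5p at 0.535 (0.194 to 1.37), an interval that holds 1. let-7c-5p was at 3.06 (1.53 to 6.67) under the same scaling, an interval that does not.

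**Figure D2:**
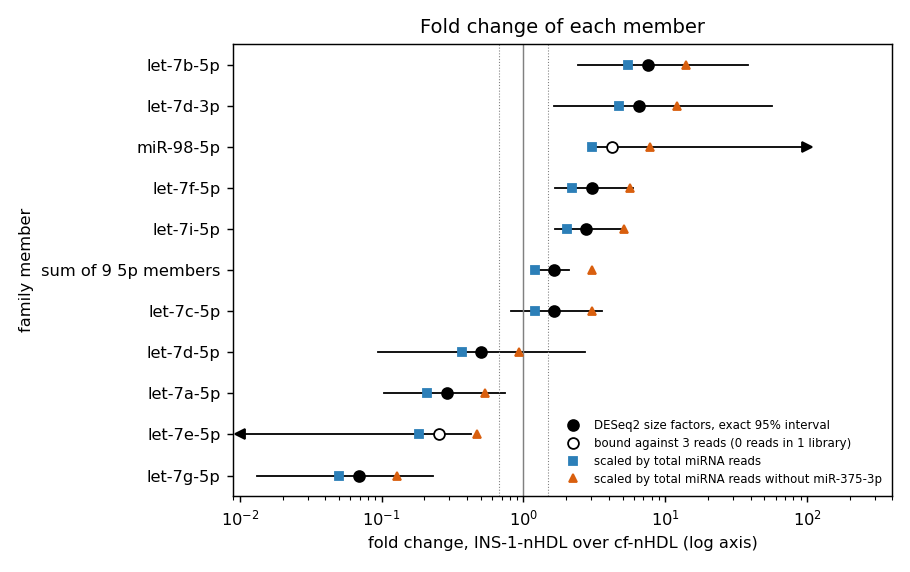
Fold change (INS-1-nHDL divided by cf-nHDL, log axis) for each member and for the sum of the 9 members of the 5p arm. Black points are scaled by DESeq2 size factors with their exact 95% intervals (counting error), open points are bounds for the members with 0 reads in 1 library, an arrow marks an interval that runs on, blue squares and orange triangles show the other scalings, and dotted lines mark 1.5 and 1/1.5. The members with reads in both libraries run from 0.0687 for let-7g-5p to 7.56 for let-7b-5p, and a change of scaling moves all of them by the same factor.

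Since a scaling moves all members alike, the ratio of the fold changes of 2 members rests on their 4 counts alone. Each pair was written with the member of the higher fold change first, so only ratios above 1 could arise. For 20 of the 36 pairs of 5p members, the exact conditional 95% interval of this ratio lay above 1. The share of separated pairs among all 81 miRNAs kept was not computed, here or for the counts of pairs below. Of these 81, 49.4% were above 1.5-fold and 39.5% below 1/1.5, so separation is not shown to be particular to the family. let-7f-5p and let-7i-5p differed from let-7g-5p by ratios of 44 (10.5 to 248.5) and 40.3 (10.2 to 223.0). let-7f-5p and let-7i-5p did not differ from each other beyond counting error, with a ratio of 1.09 and an interval of 0.472 to 2.58. let-7g-5p and let-7i-5p are 2 bases apart. let-7d-5p, with 4 reads in each library, had a fold change of 0.504 (0.0939 to 2.71) and was separated only from let-7b-5p, with a ratio of 15 (1.70 to 132.5), and from miR-98-5p, with an interval that starts at 2.75.

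Pairs that are 1 base apart were also separated. The fold change of let-7f-5p was 10.5 times that of let-7a-5p (interval 3.27 to 34.4), and that of let-7c-5p was 5.73 times that of let-7a-5p (1.68 to 19.98). The fold change of let-7b-5p was 4.58 times that of let-7c-5p (1.08 to 27.1). The fourth such pair, let-7a-5p and let-7e-5p, was not separated, and its interval starts at 0.505. In all, 3 of the 4 pairs that are 1 base apart were separated, 7 of the 10 that are 2 apart, and 10 of the 22 that are 3 or more apart. These intervals take each read as assigned to the right member. How many reads a sequencing error or the 1 mismatch allowed could have moved between neighbours was not tested.

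The decimals in the table show where reads had been divided. Within the family they stood at let-7a-5p, let-7b-5p and let-7c-5p, and at no other member. Divided reads can also add up to a whole count, so the lack of decimals does not show that a member had none. In both libraries the decimal part was 0.2 for let-7a-5p, 0.6 for let-7b-5p and 0.2 for let-7c-5p. The sum over these 3 members was whole, at 28 and 89 reads, so the decimals add up to whole reads within these 3 members. The table lists 5 positions for them in the genome, 2 each for let-7a-5p and let-7c-5p and 1 for let-7b-5p. The number of reads that had been divided is not given by the table. The sum had a fold change of 1.60 (1.04 to 2.55). The bases that part these members, A19G and A17G, lie near the 3′ end. With all members joined that a chain of single-base differences links (let-7a-5p, let-7b-5p, let-7c-5p, let-7e-5p and let-7f-5p), the reads were 47 and 167 and the fold change 1.79 (1.29 to 2.53). let-7e-5p joined with let-7a-5p, its only neighbour 1 base apart, had 20 and 8 reads and a fold change of 0.202 (0.0768 to 0.478). let-7a-5p joined with its neighbours let-7c-5p, let-7e-5p and let-7f-5p had 44 and 122 reads and a fold change of 1.40 (0.983 to 2.02), an interval that holds 1.

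The make-up of the family differed between the libraries. On cf-nHDL, let-7g-5p held 24.2% of the 91 reads of the 5p arm (Wilson 95% interval 16.5 to 33.9%), let-7i-5p 19.8% (12.9 to 29.1%), let-7a-5p 15.4% (9.39 to 24.2%), let-7f-5p 14.3% (8.54 to 22.9%) and let-7c-5p 12.1% (6.89 to 20.4%). Each of these neighbours in the order overlapped the next, so their order on cf-nHDL is not fixed by these counts. On INS-1-nHDL, let-7i-5p held 33.2% of the 298 reads (28.1 to 38.8%) and let-7f-5p 26.2% (21.5 to 31.4%). Their intervals overlap, and let-7f-5p stood apart from let-7b-5p at 15.1% (11.5 to 19.6%), which was followed by let-7c-5p at 12.1% (8.86 to 16.3%) and miR-98-5p at 8.39% (5.75 to 12.1%). The remaining let-7a-5p, let-7d-5p, let-7g-5p and let-7e-5p held 2.68%, 1.34%, 1.01% and 0% there, and 0 of 298 reads allows a share of up to 1.01%. let-7c-5p kept the same share, 12.1% in both libraries. let-7g-5p had the largest shift in share of the 9, by -23.2 percentage points.

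**Figure D3:**
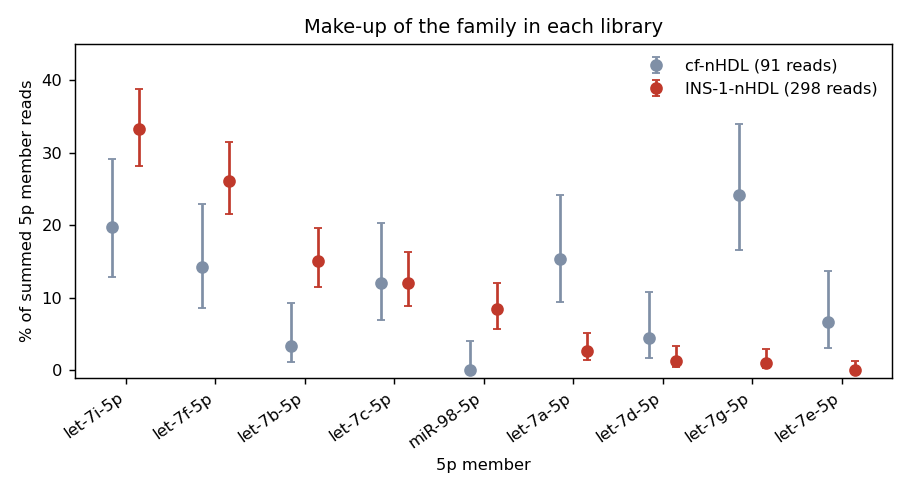
Percentage of the summed 5p reads held by each of the 9 members in the cf-nHDL library (grey) and the INS-1-nHDL library (red), with Wilson 95% intervals that cover counting error. let-7g-5p held 24.2% of the 91 reads on cf-nHDL and 1.01% of the 298 on INS-1-nHDL, and let-7i-5p went from 19.8% to 33.2%.

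let-7d was the family gene with reads on both arms in both libraries. let-7d-5p, at chr17:18476106-18476127, had 4 reads on each of cf-nHDL and INS-1-nHDL, and let-7d-3p, which starts 54 bases downstream at chr17:18476160-18476181 (plus strand, rno5), had 2 and 26. Scaled, let-7d-3p had a fold change of 6.55 (1.64 to 57.0), or 4.37 when its 2 reads on cf-nHDL are taken as 3. The 3p arm held 2 of 6 let-7d reads on cf-nHDL, or 33.3% (Wilson 95% interval 9.68 to 70.0%), and 26 of 30 on INS-1-nHDL, or 86.7% (70.3 to 94.7%). The ratio of the 3p to the 5p arm went from 0.5 to 6.5. The odds ratio between the libraries was 13, with an exact conditional interval of 1.23 to 169.9, so the arms differed beyond counting error, though the 6 reads on cf-nHDL fix its size only within that range. The arms have different seeds, and neither had decimals in the table.

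The other 3p arms of the family were barely detected at this depth. Of those in a fixed list, 8 names stood in the table, on 7 lines, since let-7a-1-3p and let-7c-2-3p share 1. A single read in all was counted on them, on let-7i-3p on cf-nHDL.

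Several members have genes close together in the genome. The table places let-7a-5p, let-7f-5p and let-7d-5p within 2128 bases on chromosome 17, at chr17:18473978-18473999, chr17:18474341-18474362 and chr17:18476106-18476127. Their reads, cf-nHDL first, were 14 and 8, 13 and 78, and 4 and 4. RefSeq on GRCr8 has the 3 genes overlap 1 long non-coding RNA gene, LOC120097935. A read of let-7a-5p or let-7f-5p cannot be traced to this cluster, since each has a second gene elsewhere. The second gene of let-7f-5p lies 611 bases from miR-98-5p on chromosome X, both overlapping Huwe1, which encodes a ubiquitin ligase, and both of these miRNAs were higher on INS-1-nHDL. let-7b-5p and 1 of the genes of let-7c-5p lie 408 bases apart on chromosome 7, nearest among coding genes to Ppara, and had fold changes of 7.56 and 1.65. The gene of let-7g-5p, the member with the lowest ratio among those with reads in both libraries, overlaps Rpl29 and Wdr82 in that annotation.

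Several let-7 genes lie near miR-99/100 and miR-125 genes. Of 11 such neighbours fixed as a list, 10 had an entry in the table, 4 had reads and 3 were kept, and all 3 had a fold change below 1/1.5, where 39.5% of all miRNAs kept did. miR-125a-5p, which starts 446 bases from let-7e-5p on chromosome 1, had 24 reads on cf-nHDL against 1 on INS-1-nHDL, which is a fold change of 0.0210 (0.000511 to 0.129), or 0.0630 when the 1 read is taken as 3. let-7e-5p, with 6 and 0 reads, was lower as well, while miR-99b-5p of the same cluster had 0 reads in both. miR-125b-2-3p, in the cluster of 1 let-7c gene on chromosome 11, had 242 and 131 reads, a fold change of 0.273 (0.219 to 0.339), where let-7c-5p had 11 and 36. let-7c-5p also has a gene on chromosome 7, so its reads cannot be traced to that cluster. miR-100-5p, in the cluster of 1 let-7a gene on chromosome 8, had 7 and 0 reads, a fold change of at most 0.216 with 3 reads assumed on INS-1-nHDL and an exact interval that ends at 0.350, and let-7a-5p had 14 and 8.

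**Figure D4:**
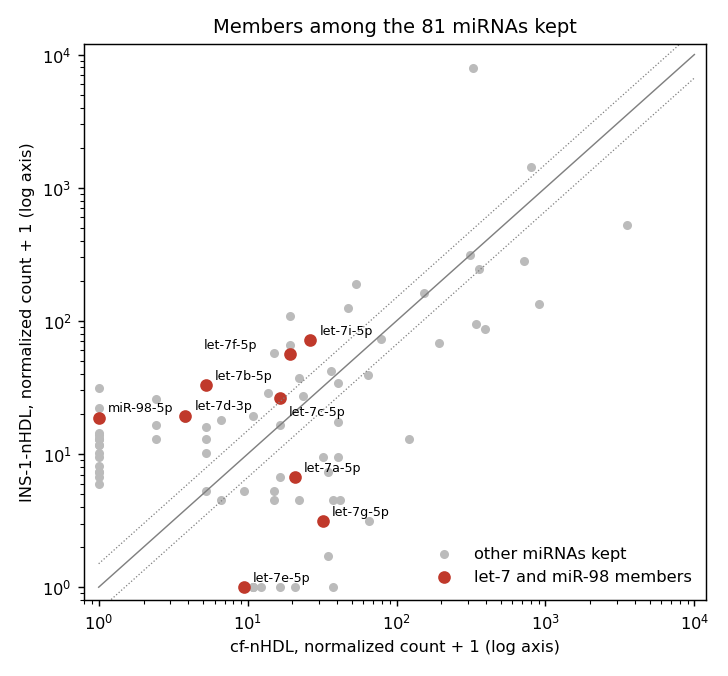
Normalized count plus 1 on cf-nHDL (horizontal) and INS-1-nHDL (vertical), both on log axes, for the 81 miRNAs kept. Red points are the 9 members kept and grey points the other miRNAs, the solid line marks equal values and the dotted lines mark 1.5-fold, and the members lie on both sides, with 6 above the upper dotted line and 3 below the lower one.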

How the data were processed

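Small RNA libraries of cf-nHDL and INS-1-nHDL, 1 pool of 3 samples each, were analysed. The authors removed adapters with Cutadapt, aligned reads longer than 16 nt to the rat genome with Bowtie 1.1.2 allowing 1 mismatch, and deposited expected counts, meaning reads per mature miRNA with shared reads divided, without normalization. How reads were divided is not given in the sources used here. The deposited DESeq2 table of the same libraries holds the authors' own fold changes and p-values and was not used.

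Expected counts were rounded (totals were not), and miRNAs under 5 reads in both libraries were dropped. Size factors came from DESeq2 1.42.0 (R 4.3.3) over the 56 kept miRNAs with reads in both libraries. With 1 library per group there was no test. Fold changes carry exact Clopper-Pearson 95% intervals, shares Wilson intervals, and ratios between members exact conditional intervals (scipy 1.17.1). A count of 0 was taken as 3 reads to give a bound, and counts of 1 to 3 give the ratio with its interval, where the plan had been to take them as 3 reads too; of the single miRNAs given, this moves let-7d-3p and miR-125a-5p. With every count under 3 taken as 3 (chosen after seeing the data), 38 rather than 40 of the 81 miRNAs were above 1.5-fold, and 32 stayed the number below 1/1.5. Alternatives were edgeR 4.0.16 TMM, total miRNA reads with and without miR-375-3p, other sets for the size factors, other filters, unrounded counts and a pseudocount of 1. The computation was tested on simulated data in which most miRNAs did not change, unlike here, so that test does not check the size factors of these libraries. All 10 members are named by rule; their choice, and that of the lists, was made with earlier results of these data known. Coordinates are the authors'; GRCr8 served for gene names and mature sequences.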

Additional observations from a re-analysis of the deposited data

How the results depend on the processing

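No paired analysis was possible because each group has 1 library, and none could be left out. The fold change of the 5p sum, 1.65, was 1.20 under total miRNA reads and 3.07 under the same totals with miR-375-3p taken out, changes that follow from the scaling itself. It was 2.15 without let-7g-5p and 1.02 without both let-7i-5p and let-7f-5p, the last chosen after seeing the data, and between 1.37 and 2.15 with any 1 of the 9 members left out. Under TMM it was 1.70, and with size factors from miRNAs outside the family 1.77. The share of the 5p sum on INS-1-nHDL was 4.39% without miR-375-3p in the total. let-7a-5p and let-7e-5p lay in a sum at 1.79 when all 5 members linked by a chain of 1-base differences were joined. Joined only with its own neighbours 1 base apart, let-7a-5p was at 1.40 and let-7e-5p at 0.202. In the same way let-7f-5p was at 1.61, against 3.02 alone, and let-7b-5p at 2.92, against 7.56 alone. let-7a-5p was at 1.60 with let-7b-5p and let-7c-5p. These joins were chosen after seeing the data. Of the members, 6 were above 1.5-fold under each scaling but total miRNA reads, where 5 were, and 3 were below 1/1.5-fold under each. Over the same scalings, between 44.4% and 59.3% of all miRNAs kept were above and between 32.1% and 42.0% below. Limiting the size factors to miRNAs that reached 10 reads in both libraries left them identical, so this choice tested nothing. With a minimum of 1, 10 or 20 reads in either library, 6 members stayed above 1.5-fold, while 4, 2 and 1 were below 1/1.5-fold. The shares of all miRNAs at these minimums were not computed. Depth limits let-7d-5p, let-7e-5p and every member with under 5 reads in 1 library.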
